A study of Homo sapiens with 6 samples.

Results

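The 9 genes described here are NFE2L2, which encodes the transcription factor NRF2, its inhibitor KEAP1, and 7 antioxidant genes that NRF2 is known to activate (HMOX1, GCLC, GCLM, TXNRD1, SRXN1, NQO1 and OSGIN1). They were chosen by symbol, with earlier results of these data known. Their counts beside those of all probe sets or all genes are therefore descriptive. Every probe set that the platform annotation assigns to exactly 1 of these symbols was used, which gave 18 of the 54613 probe sets tested and 9 of 19775 genes. A probe set is a group of short array probes against the same transcript. A further probe set, 1567014_s_at, is annotated to both NFE2L2 and CSNK2A1 and was set aside (-0.05 ± 0.09 log2, SE, n = 3 per group).

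The cells were MDA-MB-231, an established human breast cancer line of mesenchymal appearance without oestrogen receptor. One group of 3 arrays came from cells transfected with a control vector and the other, also of 3, from cells given an expression plasmid for HS3ST2, a heparan sulfate 3-O-sulfotransferase. The labels describe the 3 replicates of a group as independent. They do not say whether these were separate transfections, how long after transfection RNA was taken, or whether cells were selected or cloned, so the p-values cover array-to-array spread that may be technical.

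NRF2 is a stress-responsive factor that pairs with small MAF proteins on short DNA sequences called antioxidant response elements. In unstressed cells KEAP1 binds NRF2 and delivers it to the CUL3 ubiquitin ligase for degradation. Oxidants and electrophiles modify KEAP1, NRF2 accumulates, and the genes for glutathione synthesis, thioredoxin reduction, quinone reduction and haem breakdown are transcribed.

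Each deposited value is a log signal, with the base taken to be 2, relative to the median of the 6 arrays for that probe set. The values compare arrays within a probe set and do not give levels, so no gene can be said to be more abundant than another, and the presence of the line's markers could not be checked. A difference is the mean of the HS3ST2-labelled arrays minus the mean of the control arrays, on the log2 scale. It is given with the standard error (SE) of limma, a linear model that shares the estimate of spread between features, with n = 3 per group throughout. A call is a Benjamini-Hochberg adjusted p under 0.05 in that fit, adjusted over all probe sets or all genes. A gene's value is the mean of its probe sets. In cultures a smaller share of expressing cells and less RNA per cell cannot be told apart.

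The single HS3ST2 probe set was not called. Its values were -0.22, 0.17 and -0.11 in control arrays and 0.16, 0.04 and -0.04 in HS3ST2-labelled arrays (0.11 ± 0.10 log2, limma adjusted p 0.523). Whether its probes can detect the plasmid's transcript was not tested, and the directions below rest on the labels. The median of 6 ribosomal RNA control probe sets ranged from -0.29 to -0.06 in control arrays and from 0.02 to 0.74 in HS3ST2-labelled arrays, with the highest value in HS3ST2 replicate 3. The mean of 12 luminal breast markers, 4 of them called higher (TFF1, TFF3, AGR2 and KRT18) and none lower, ranged from -0.35 to -0.27 in control and from 0.28 to 0.31 in HS3ST2-labelled arrays. Most of that shift lay in TFF1 (3.04), TFF3 (2.54) and AGR2 (0.85). The median difference of the list was 0.17, 8 of the 12 were not called, and PGR (-0.14) and EPCAM (-0.08) were on the other side of 0. The mean of 6 measured leukocyte markers, 2 called higher and 1 lower, ranged from -0.14 to -0.09 and from 0.10 to 0.14. Of 8 fibroblast markers none was called, and none had an unadjusted limma p under 0.05. Of 8 markers of mesenchymal breast cancer lines, 1 was called higher and 2 lower. The part of these shifts in the results below was not tested.

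Genes of the antioxidant response were lower in the HS3ST2-labelled arrays in 9 probe sets of 6 genes, while 1 of 3 NFE2L2 probe sets was higher. Among the 18 probe sets 9 were called lower and 1 higher, where 8.98% of all probe sets were called lower, 7.9% higher and 16.9% either way. The same 9 had all HS3ST2-labelled arrays below all control arrays, and the same 1 had them above, against 17.4% and 16.6% of all probe sets (34.1% together). Averaged per gene, 4 of the 9 genes were called lower (NQO1, GCLC, HMOX1 and SRXN1), none higher and 5 were not called, where 13% of all genes were called lower, 11.5% higher and 24.5% either way. All 3 HS3ST2-labelled values lay below all 3 control values in 6 of the 9 genes, the 4 called ones with GCLM and TXNRD1, where 20.9% of all genes had this arrangement, 19.5% had the opposite one and 40.4% had either. The median gene difference was -0.16 log2 over the 9 genes and 0.01 over all genes. Without HS3ST2 replicate 3, the array of highest ribosomal signal, the same 4 genes were called, at -0.52 (NQO1), -0.54 (GCLC), -0.53 (HMOX1) and -0.24 (SRXN1). In ribosomal signal the remaining HS3ST2-labelled arrays (0.02 and 0.16) were also above all control arrays. Leaving out replicate 3 therefore cannot separate that signal from the groups. Without HS3ST2 replicate 3, or without control replicate 2, the number of the 18 probe sets called lower was 6 and none was higher. Calls also fell over all probe sets. Leaving out 1 array gave 3285 to 3775 lower and 3014 to 3405 higher, against 4905 and 4315 with all 6 arrays.

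**Figure D1:**
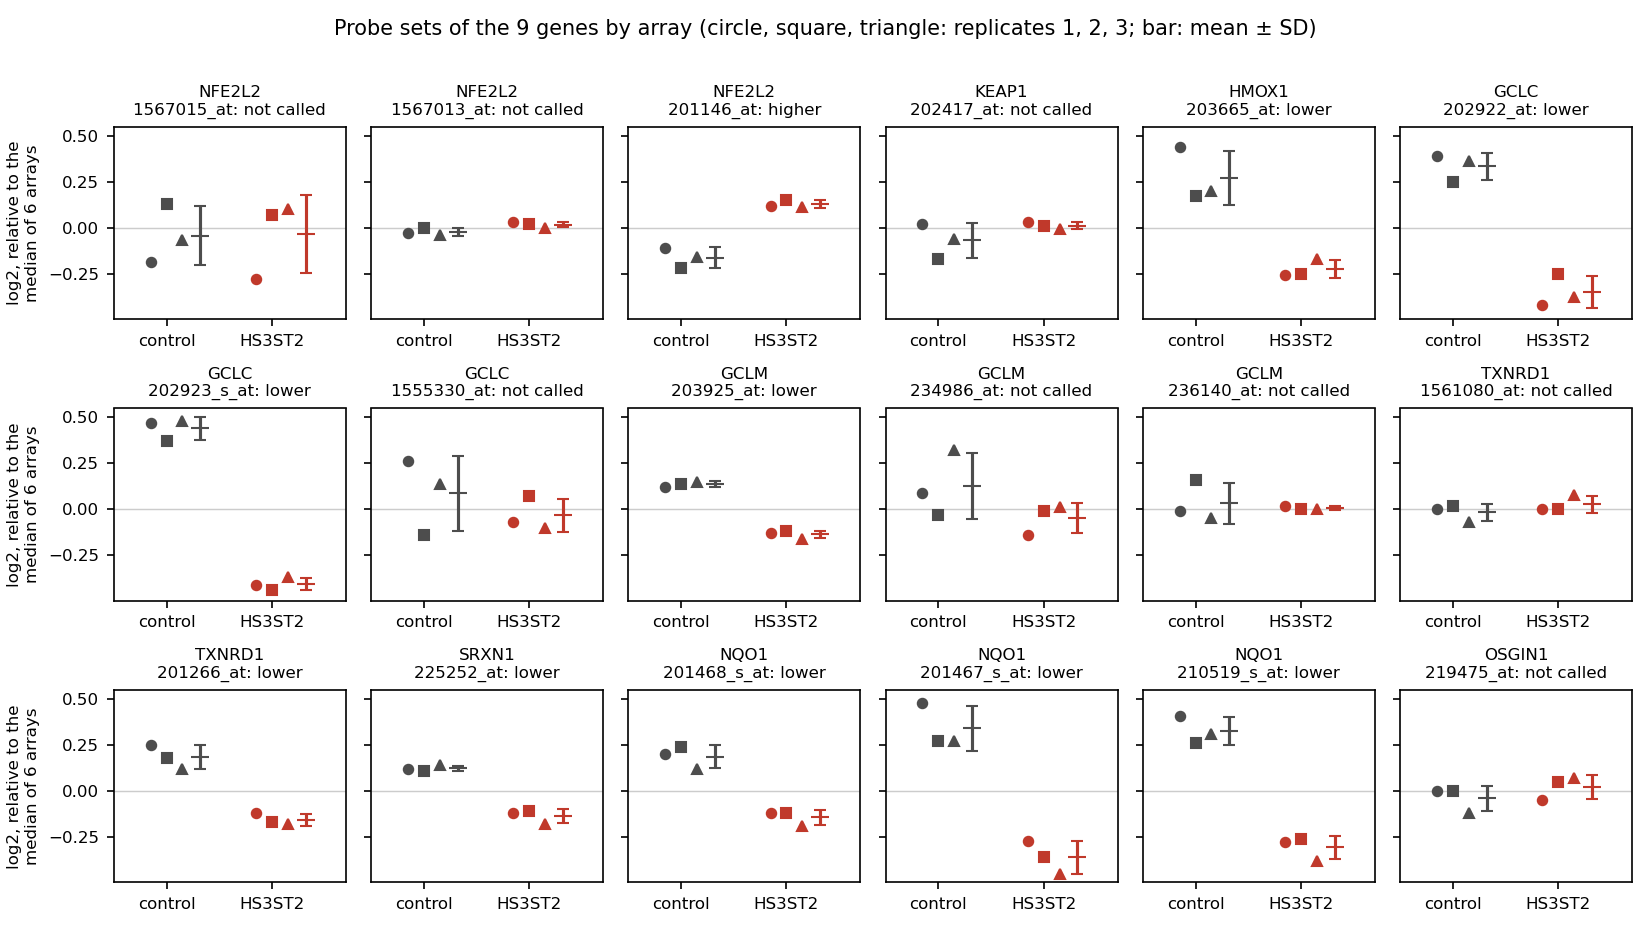
Log2 value relative to the 6-array median (y axis) of each of the 18 probe sets in the 3 control arrays (grey) and the 3 HS3ST2-labelled arrays (red). Symbols mark replicates 1, 2 and 3, bars are the mean and SD, and each title gives the call at an adjusted p under 0.05. The groups are apart in 10 panels, 9 of them with the HS3ST2-labelled arrays below.

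NFE2L2 was measured by 3 probe sets that did not behave alike. Probe set 201146_at stood at -0.11, -0.22 and -0.16 in control arrays and at 0.12, 0.15 and 0.11 in HS3ST2-labelled arrays. All HS3ST2-labelled values were above all control values, and the probe set was called higher by 0.29 ± 0.06 log2, a 1.23-fold difference (limma adjusted p 0.0179). The call was close to the threshold. It held without control replicate 1 (0.32, adjusted p 0.0294) and was lost when any other array was left out (differences from 0.26 to 0.30, adjusted p up to 0.0657).

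The other NFE2L2 probe sets showed no such separation. Probe set 1567013_at stayed between -0.04 and 0.03 in all 6 arrays (difference 0.04 ± 0.06). Probe set 1567015_at ranged from -0.19 to 0.13 in control and from -0.28 to 0.10 in HS3ST2-labelled arrays (difference 0.00 ± 0.12), so replicates of a group differed more than the groups did. The gene mean was 0.11 ± 0.06 (95% interval -0.02 to 0.24, limma adjusted p 0.212), and was not called.

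KEAP1, the repressor of NRF2, was not called. Its single probe set stood at 0.02, -0.17 and -0.06 in control arrays and at 0.03, 0.01 and -0.01 in HS3ST2-labelled arrays, with overlap between the groups. The difference was 0.08 ± 0.06 log2 (95% interval -0.06 to 0.22, limma adjusted p 0.405).

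Because several antioxidant genes fell together, the DNA just upstream of their start sites is shown, with letters in capitals where it matches TGACNNNGC, the core of the antioxidant response element, on either strand. The RefSeq promoter table (build GRCh38.p14) held 8 of the 9 genes, all but HMOX1, with 11 start sites. The match was sought in the 250 bases before each start, on both strands. It was present at 4 of the 11 starts, those of GCLM, TXNRD1 (both starts) and the second start of KEAP1, and at 10.9% of all 35116 starts in the table. The related letters TGAGTCA, the core of an AP-1 site (both strands), can overlap a TGACNNNGC match. They were present at OSGIN1 only among these 8 genes and at 4.2% of all starts. The windows are those of GCLC (chr6:53545102-53545351, minus strand), NQO1 (chr16:69726561-69726810, minus strand), GCLM (chr1:93909431-93909680, minus strand) and the first and second start of TXNRD1 (chr12:104215529-104215778, plus strand, and chr12:104286782-104287031, plus strand), each printed 5′ to 3′ along the gene.
GCLC: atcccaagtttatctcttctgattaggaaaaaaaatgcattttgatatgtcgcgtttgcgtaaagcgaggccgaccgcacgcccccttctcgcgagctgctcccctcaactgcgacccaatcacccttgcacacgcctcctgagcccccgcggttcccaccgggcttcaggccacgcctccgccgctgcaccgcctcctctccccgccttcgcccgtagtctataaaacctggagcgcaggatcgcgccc
NQO1: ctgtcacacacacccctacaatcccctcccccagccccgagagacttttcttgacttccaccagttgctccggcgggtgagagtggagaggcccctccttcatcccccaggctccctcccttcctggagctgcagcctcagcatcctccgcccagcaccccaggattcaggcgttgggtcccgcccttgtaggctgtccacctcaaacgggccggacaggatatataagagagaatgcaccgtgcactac
GCLM: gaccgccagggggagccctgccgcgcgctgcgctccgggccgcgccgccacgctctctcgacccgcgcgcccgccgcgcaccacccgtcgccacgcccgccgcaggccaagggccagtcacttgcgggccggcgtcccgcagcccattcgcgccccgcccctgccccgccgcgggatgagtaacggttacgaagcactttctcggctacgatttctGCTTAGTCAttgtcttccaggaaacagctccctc
TXNRD1, first start: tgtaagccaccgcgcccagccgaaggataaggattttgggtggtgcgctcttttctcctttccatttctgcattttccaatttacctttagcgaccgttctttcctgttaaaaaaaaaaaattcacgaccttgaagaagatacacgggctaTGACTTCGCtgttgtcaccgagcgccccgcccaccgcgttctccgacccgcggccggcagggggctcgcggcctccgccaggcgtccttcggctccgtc
TXNRD1, second start: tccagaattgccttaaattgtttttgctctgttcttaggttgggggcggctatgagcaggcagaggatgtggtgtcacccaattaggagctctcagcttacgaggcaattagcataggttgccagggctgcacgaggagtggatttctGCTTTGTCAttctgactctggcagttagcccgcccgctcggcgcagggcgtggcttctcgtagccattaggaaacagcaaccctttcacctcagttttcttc
The GCLM match, GCTTAGTCA as printed, lay on the opposite strand, 34 to 26 bases before the start. The TXNRD1 matches were TGACTTCGC, 99 to 91 bases before the first start, and GCTTTGTCA, on the opposite strand, 102 to 94 bases before the second. The GCLC and NQO1 windows, and that of SRXN1, not printed here, hold no match, which says only that these letters are not in these 250 bases. The genes with a match, GCLM, TXNRD1 and KEAP1, were not called as gene means, though 1 probe set each of GCLM and TXNRD1 was called lower. Whether these letters bear on the differences was not tested.

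GCLC encodes the catalytic subunit of glutamate-cysteine ligase, the enzyme of the rate-limiting step of glutathione synthesis. Its probe set 202923_s_at had the largest difference among the 18. It stood at 0.47, 0.37 and 0.48 in control arrays and at -0.41, -0.44 and -0.37 in HS3ST2-labelled arrays. The groups were far apart relative to their spread, and the fall was 0.85 ± 0.07 log2, or 1.8-fold (-0.85, limma adjusted p 0.000212). Probe set 202922_at stood at 0.39, 0.25 and 0.36 against -0.42, -0.25 and -0.38, a difference of -0.68 ± 0.08 (adjusted p 0.00103). Both calls held whichever array was left out. The third probe set, 1555330_at, overlapped between the groups (0.26, -0.14 and 0.14 against -0.07, 0.07 and -0.10) and was not called (-0.12 ± 0.11). The mean of the 3 probe sets gave -0.55 ± 0.07 log2 for the gene (95% interval -0.71 to -0.39, limma adjusted p 0.000863). Among all genes 2.47% had a lower difference. Probe sets ending in _x_at or _s_at have probes that can match several transcripts. Without them the GCLC difference was -0.40 ± 0.08, still called (limma adjusted p 0.0117).

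GCLM encodes the modifier subunit, which raises the activity of the catalytic subunit. Probe set 203925_at stood at 0.12, 0.14 and 0.15 in control arrays and at -0.13, -0.12 and -0.16 in HS3ST2-labelled arrays. The replicates were tightly grouped and the difference small, -0.28 ± 0.06 log2, or 1.21-fold (limma adjusted p 0.0175). The call held without control replicate 1 or HS3ST2 replicate 1 and was lost without any other single array (adjusted p up to 0.0635). Probe set 234986_at (-0.17 ± 0.10) and probe set 236140_at (-0.03 ± 0.08) overlapped between groups and were not called. The gene mean of -0.16 ± 0.05 log2 missed the threshold (95% interval -0.28 to -0.04, adjusted p 0.0528), and passed it with array weights (-0.16, adjusted p 0.0441).

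The values of the ligase's subunits were also set against each other. Within each array, GCLC minus GCLM at the gene level was 0.30, 0.07 and 0.18 in control arrays and -0.21, -0.16 and -0.23 in HS3ST2-labelled arrays. The groups did not overlap, with means of 0.19 ± 0.12 and -0.20 ± 0.04 (SD, n = 3) and a difference of -0.39 log2. The two-sided exact permutation p was 0.1, the smallest that 3 arrays against 3 allow, so this difference cannot pass a threshold of 0.05. The GCLM mean includes the 2 probe sets that overlapped between groups, and different probes can respond unequally. With the most changed probe set of each gene (202923_s_at and 203925_at) the difference was -0.57 log2 (exact permutation p = 0.1, two-sided), a pair chosen for its changes.

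TXNRD1 encodes cytosolic thioredoxin reductase, which uses NADPH to keep thioredoxin reduced. Probe set 201266_at stood at 0.25, 0.18 and 0.12 in control arrays and at -0.12, -0.17 and -0.18 in HS3ST2-labelled arrays. The groups did not overlap, and the difference of -0.34 ± 0.07 log2, or 1.27-fold, was called (limma adjusted p 0.0104), also whichever array was left out (adjusted p from 0.0222 to 0.041). The other probe set, 1561080_at, lay between -0.07 and 0.08 in all arrays (0.05 ± 0.07). Averaging it in gave a gene difference of -0.15 ± 0.05 (95% interval -0.27 to -0.03, adjusted p 0.0773), which was not called. When the probe set with the largest SD stood for the gene in place of the mean, TXNRD1 was called (-0.34, adjusted p 0.00951).

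SRXN1 encodes sulfiredoxin, which restores overoxidised peroxiredoxins. Its single probe set stood at 0.12, 0.11 and 0.14 in control arrays and at -0.12, -0.11 and -0.18 in HS3ST2-labelled arrays. The groups were apart, and the difference was -0.27 ± 0.05 log2, or 1.2-fold, in the fit over genes (95% interval -0.38 to -0.15, limma adjusted p 0.00615). In that fit the call held with each array left out (adjusted p from 0.018 to 0.0272). In the fit over probe sets the same values had an adjusted p of 0.0228, and the call was lost whichever array was left out (adjusted p from 0.0533 to 0.0814), with differences from -0.28 to -0.24.

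NQO1 encodes a quinone reductase that is widely used as a readout of NRF2 activity. All 3 of its probe sets were called lower, and it had the smallest p of the 9 genes. Probe set 201467_s_at stood at 0.48, 0.27 and 0.27 in control arrays and at -0.27, -0.36 and -0.45 in HS3ST2-labelled arrays (-0.70 ± 0.09 log2, limma adjusted p 0.00146). Probe set 210519_s_at stood at 0.41, 0.26 and 0.31 against -0.28, -0.26 and -0.38 (-0.63 ± 0.07, adjusted p 0.00117). In both the control arrays were uniformly above the HS3ST2-labelled ones, with control replicate 1 highest.

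Probe set 201468_s_at of NQO1 showed a smaller fall, from 0.20, 0.24 and 0.12 to -0.12, -0.12 and -0.19 (-0.33 ± 0.07 log2, limma adjusted p 0.014). Its call was lost without control replicate 2 or HS3ST2 replicate 3 (adjusted p 0.0549 in each case). The gene mean was -0.55 ± 0.06 log2, or 1.47-fold (95% interval -0.69 to -0.41, adjusted p 0.00048). It was called whichever array was left out, with differences from -0.58 to -0.51. All probe sets of NQO1 end in _s_at, a suffix for probes that can match several transcripts, so the gene has no value without that class.

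HMOX1 encodes the inducible haem oxygenase, which degrades haem to biliverdin, carbon monoxide and iron. Its single probe set stood at 0.44, 0.17 and 0.20 in control arrays and at -0.26, -0.25 and -0.17 in HS3ST2-labelled arrays. Control replicate 1 was well above the other control arrays, and all control values were above all HS3ST2-labelled values. The difference was -0.50 ± 0.08 log2, or 1.41-fold (95% interval -0.68 to -0.31, limma adjusted p 0.00286). Without control replicate 1 it was -0.41 (adjusted p 0.00405), and it was called whichever array was left out.

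OSGIN1, an oxidative stress-induced growth inhibitor, was the target gene whose groups overlapped. It stood at 0.00, 0.00 and -0.12 in control arrays and at -0.05, 0.05 and 0.07 in HS3ST2-labelled arrays. The difference of 0.07 ± 0.06 log2 was not called (95% interval -0.08 to 0.21, limma adjusted p 0.5), and that interval does not reach the differences of NQO1, GCLC, HMOX1 or SRXN1.

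**Figure D2:**
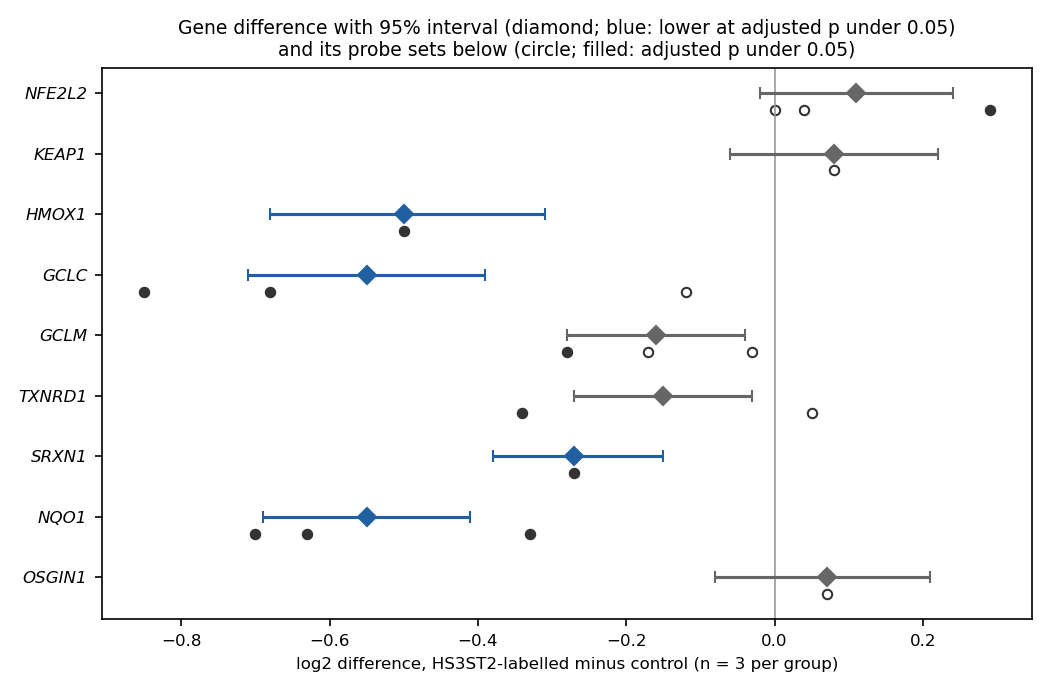
Log2 difference (x axis, HS3ST2-labelled minus control, n = 3 per group) of each gene as the mean of its probe sets, with the 95% interval (diamonds), and of its single probe sets (circles, filled where called). NQO1 (-0.55), GCLC (-0.55), HMOX1 (-0.50) and SRXN1 (-0.27) were called lower, and probe sets of NFE2L2, GCLC, GCLM and TXNRD1 were spread.

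The firmness of the single calls differed between genes. Of the 10 called probe sets, 6 stayed under the threshold with every array left out, those of HMOX1 and TXNRD1 (201266_at), 2 of GCLC (202922_at and 202923_s_at) and 2 of NQO1 (201467_s_at and 210519_s_at). The other 4, of NFE2L2, GCLM, SRXN1 and NQO1 (201468_s_at), had differences of 0.33 log2 or less in size and crossed the threshold in at least 1 case. At an adjusted p under 0.01 with all arrays, 5 of the 18 probe sets were called lower and none higher, and the number of genes called lower stayed 4. At that threshold 2435 of all 54613 probe sets were lower and 2208 higher. Of all 19775 genes 1555 were lower and 1285 higher.

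**Figure D3:**
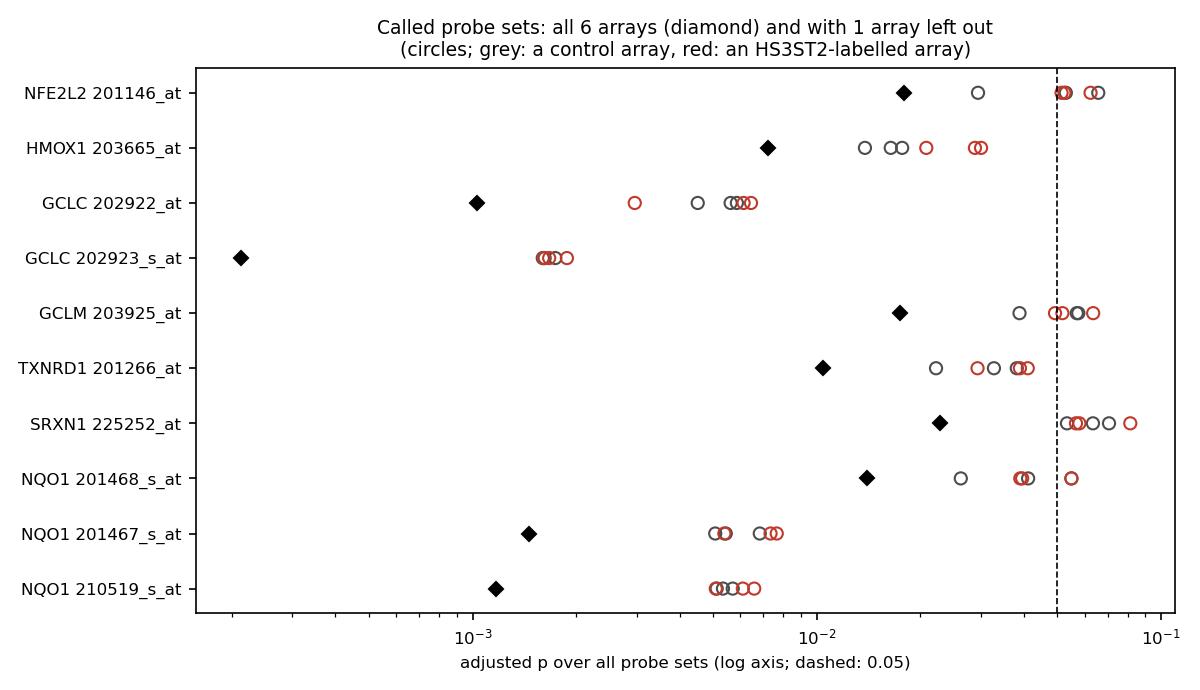
Adjusted p over all probe sets (x axis, log scale, dashed line at 0.05) of the 10 called probe sets with all 6 arrays (diamonds) and with a control array (grey circles) or an HS3ST2-labelled array (red circles) left out. The circles of SRXN1 lie between 0.0533 and 0.0814, those of GCLC 202923_s_at between 0.0016 and 0.00188.

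Other genes of redox defence were read from 7 lists with 123 measured genes in all, also chosen with earlier results known. Of these 36 were called lower, 21 higher and 66 were not called, against 13% and 11.5% of all genes. The median difference was -0.04 log2 over the lists and 0.01 over all genes. Without HS3ST2 replicate 3, 27 were lower and 15 higher, and without control replicate 2, 30 were lower and 13 higher. Without the _x_at and _s_at probe sets, 97 genes of the lists were measured, of which 18 were lower and 16 higher. Over all genes in that setting 1661 of 17098 were lower, and the number higher is not given here.

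Glutathione synthesis, recycling and use was the largest list. Of 29 measured genes 10 were called lower, 4 higher and 15 were not called, with a median of -0.07 log2. GSS, which encodes glutathione synthetase, the step after the GCLC and GCLM ligase, fell by 0.72 ± 0.05 log2 (limma adjusted p 8.8e-05), with both probe sets called. The plasma glutathione peroxidase gene GPX3 fell by 0.95 ± 0.07 log2 and GGCT, a gamma-glutamylcyclotransferase, fell by 0.61 ± 0.05. CHAC1, which degrades glutathione, rose by 1.21 ± 0.07 (adjusted p 2.61e-05). SLC7A11, the cystine importer and a known NRF2 target, named here after its value was seen, was at -0.07 ± 0.05 (adjusted p 0.42), with probe sets from -0.22 to 0.09. With 1 array left out the list had 7 to 10 genes lower and 2 to 3 higher, against 10 and 4 with all arrays. The number called higher was 2 when control replicate 2 or HS3ST2 replicate 1 or 2 was left out.

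Among regulators and partners of NRF2, 3 of 17 measured genes were called higher, 4 lower and 10 were not called, with a median of 0.05 log2. SQSTM1, the autophagy receptor p62 that binds KEAP1 and is itself an NRF2 target, fell by 0.39 ± 0.07 log2 (limma adjusted p 0.00534), with probe sets from -0.90 to 0.03 of which 2 of 5 were called. NFE2L1, a relative of NRF2, fell by 0.26 ± 0.06, with all 3 probe sets called. BACH2, of the BACH repressor family, fell by 0.30 ± 0.07, a call lost when control replicate 2, HS3ST2 replicate 1 or replicate 2 was left out (adjusted p up to 0.0631). BACH1, of the same family and named after its value was seen, was not called (0.18 ± 0.06, limma adjusted p 0.0724). Its probe set 204194_at was called higher (0.56 ± 0.07), and the others were at -0.01. NFE2, the erythroid relative of NRF2, rose by 0.67 ± 0.09. The other genes called higher, named after their values were seen, were CUL3 (0.23 ± 0.06, limma adjusted p 0.0257) and RXRA (0.20 ± 0.06, adjusted p 0.043). The CUL3 probe sets were at 0.32, -0.04 and 0.42. With 1 array left out the list had 2 to 4 genes lower and 1 to 2 higher, against 4 and 3 with all arrays. Without control replicate 2 or HS3ST2 replicate 2 the list had 2 lower and 1 higher, and without HS3ST2 replicate 3 it had 1 higher. Without the _x_at and _s_at probe sets, 10 genes were left with 1 lower and 1 higher, and SQSTM1 was not called (-0.27, adjusted p 0.0771).

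The thioredoxin, peroxiredoxin and methionine sulfoxide repair list had 4 genes lower, 1 higher and 11 not called of 16. PRDX1, an abundant peroxiredoxin and NRF2 target, fell by 0.27 ± 0.06 log2 (limma adjusted p 0.00919). PRDX4 and PRDX6 fell by 0.20 ± 0.05 and 0.19 ± 0.05, small differences. The PRDX4 call was lost without any array except HS3ST2 replicate 2 (adjusted p from 0.053 to 0.0756, and 0.0376 without that replicate), and the PRDX6 call was lost without any 1 array (0.0586 to 0.0766). The sestrin gene SESN3 rose by 0.44 ± 0.05, with 4 of 7 probe sets called and a range from 0.05 to 1.00. TXN, thioredoxin itself, named after its value was seen, had 1 of 2 probe sets called lower (208864_s_at, -0.27) and a gene mean of -0.02 ± 0.10. The number called lower was 1 without control replicate 1 or 2 or HS3ST2 replicate 1, and 2 without any other single array.

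NADPH supply had 4 genes lower and 2 higher of 11 measured. ME2, a mitochondrial malic enzyme, fell by 0.47 ± 0.06 log2 (limma adjusted p 0.000722), with all 3 probe sets called. IDH2, a mitochondrial isocitrate dehydrogenase, fell by 0.31 ± 0.06. NADK, the kinase that makes NADP, fell by 0.24 ± 0.05 with 3 of 6 probe sets called, a call lost without HS3ST2 replicate 3 (adjusted p 0.0526). MTHFD2, a mitochondrial folate enzyme, rose by 0.24 ± 0.06, lost without control replicate 1 or 2 or HS3ST2 replicate 1 or 3 (adjusted p up to 0.0747). Without HS3ST2 replicate 3 the list had 2 lower and 0 higher, without control replicate 1 it had 0 higher, and 1 was higher without any other single array. Without the _x_at and _s_at probe sets IDH2 was not called (-0.22, adjusted p 0.0955).

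Genes of quinone, carbonyl and xenobiotic handling moved both ways, with 7 lower, 6 higher and 9 not called of 22. AKR1B10, an aldo-keto reductase induced by NRF2, fell by 0.56 ± 0.06 log2 (limma adjusted p 0.00059), and ABCC1, which exports glutathione conjugates, fell by 0.43 ± 0.06. ALDH3A2, a fatty aldehyde dehydrogenase, rose by 0.72 ± 0.06 with all 3 probe sets called, and the drug exporter ABCG2 rose by 0.64 ± 0.06. These 4 calls held with each array left out.

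In the haem and iron list 5 of 16 measured genes were lower and 2 higher. HMOX2, the constitutive counterpart of HMOX1, fell by 0.31 ± 0.05 log2 (limma adjusted p 0.00452), with probe sets at -0.51 and -0.11. BLVRA, the biliverdin reductase that acts after haem oxygenase, fell by 0.29 ± 0.05, with 3 of 5 probe sets called and a range from -0.49 to 0.00. ALAS1, the first enzyme of haem synthesis, fell by 0.31 ± 0.06, while ALAD, the next enzyme, rose by 0.37 ± 0.06 with probe sets at 0.64 and 0.09. With control replicate 2 or HS3ST2 replicate 2 or 3 left out, 1 gene was higher. Without the _x_at and _s_at probe sets no gene of the 14 left was called lower, with HMOX2 at -0.11 (adjusted p 0.407) and BLVRA at 0.00 (adjusted p 0.98).

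Enzymes that make or remove superoxide and hydrogen peroxide had 2 genes lower, 3 higher and 7 not called of 12, with a median of 0.12 log2. NOX5, a calcium-dependent NADPH oxidase, changed most of the 123 genes and fell by 1.37 ± 0.08 log2 (limma adjusted p 2.35e-05), with both probe sets called. SOD1, cytosolic superoxide dismutase, fell by 0.26 ± 0.05. QSOX1, a sulfhydryl oxidase, rose by 0.69 ± 0.06, with probe sets from 0.20 to 1.30, and DUOX2, a dual oxidase that produces hydrogen peroxide, rose by 0.57 ± 0.09.

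**Figure D4:**
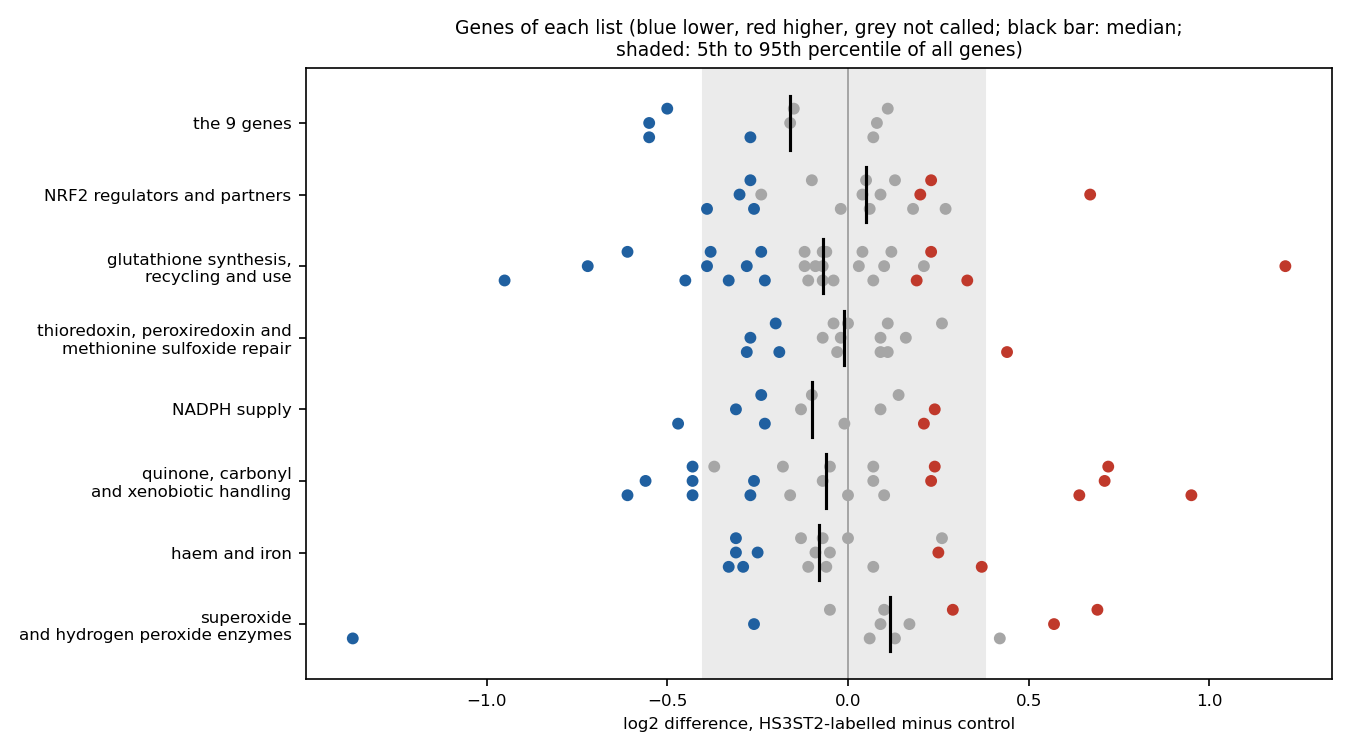
Log2 difference (x axis, HS3ST2-labelled minus control) of every measured gene of the 9 genes and of the 7 lists, in blue where called lower, in red where called higher and in grey where not called. The black bar is the list's median and the shaded band runs from the 5th to the 95th percentile of all genes, -0.40 to 0.38, with NQO1, GCLC and HMOX1 left of it.

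The genes closest to NQO1 in profile were found by the root mean square difference of gene values over the 6 arrays, among 19774 other genes. They were the centromere gene CENPC (0.022 log2), the mitochondrial ribosomal gene MRPL24 (0.027) and PPAT, of purine synthesis (0.028). They were called lower by 0.58, 0.55 and 0.55 log2 (-0.58, -0.55 and -0.55). Picked for nearness over the same 6 arrays, they had a difference like that of NQO1 by choice. The genes closest to the NFE2L2 mean were SKI (0.018), C5orf15 (0.021) and CD58 (0.023), none of them called, at 0.10, 0.10 and 0.07. Their likeness to NFE2L2 was fixed by the choice in the same way.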

How the data were processed

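RNA of 6 cultures was hybridised to 1-colour Affymetrix arrays, and the values were summarised with RMA, per the submitters' processing notes. The deposited values are log2 signals, base taken as 2, and each of the 54675 probe sets is centred on its 6-array median (largest row median 4.8e-07 in size). Scale is kept, levels are lost, and signal over background cannot be read.

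After 62 control probe sets were set aside, 54613 were tested. The platform annotation gave 41091 of them 1 symbol, 1801 several and 11721 none, and the means of those with 1 symbol gave 19775 genes (41037 matched a RefSeq gene number). Groups came from the labels and were compared with limma 3.58.1 in R 4.3.3 (group as the only term, Benjamini-Hochberg adjustment over all probe sets or all genes) after a check on simulated data. Single values used scipy 1.17.1 (Python 3.11.15). No pairing of the arrays by replicate number was seen. The members and lists were chosen with earlier results of these data known. Named genes are the 9 genes, HS3ST2, up to 4 called genes per list by smallest p, and the 3 genes closest in profile to NFE2L2 and to the member of smallest p. SLC7A11, TXN, BACH1, CUL3, RXRA and the called luminal markers, with PGR and EPCAM, were named after their values were seen. Alternatives were array centring, quantile normalization, robust fit, array weights, replicate block, left-out arrays, probe set choice and thresholds. Promoters are RefSeq's (GRCh38.p14), and HMOX1's promoter was not used here.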

Additional observations from a re-analysis of the deposited data

Results flagged for a closer look

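The ribosomal RNA control probe sets, which lie outside the gene comparison, were higher in the HS3ST2-labelled arrays. Their median over 6 probe sets was -0.20, -0.06 and -0.29 in control arrays and 0.02, 0.16 and 0.74 in HS3ST2-labelled arrays. The group means were -0.18 ± 0.12 and 0.31 ± 0.38 (SD, n = 3), a difference of 0.49 log2 (two-sided exact permutation p = 0.1, the smallest possible with 3 against 3). HS3ST2 replicate 3 was the highest array, and the 4 genes called lower with all arrays, NQO1, GCLC, HMOX1 and SRXN1, were also called without it. Since the remaining HS3ST2-labelled arrays (0.02 and 0.16) were also above all control arrays, leaving it out cannot separate this signal from the groups. The part of this signal in the differences was not tested.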

How the results depend on the processing

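The cause of each change was not tested, except where fewer features or arrays or a stricter threshold is the change itself. No pairing of the arrays by the labels' replicate numbers was seen. Correlations of same-numbered deviations were 0.152, 0.041 and -0.083, and those of different-numbered ones ran from -0.195 to 0.182. With 3 arrays a group this cannot exclude pairing. With the replicate number as a block, 7 of the 18 probe sets were lower and 0 higher (4105 and 3600 of all 54613), where NFE2L2 201146_at (adjusted p 0.0502), GCLM 203925_at (0.0513) and SRXN1 225252_at (0.0607) were lost, and 4 of the 9 genes stayed lower. Leaving out 1 array gave 6 to 8 of the 18 probe sets lower and 0 to 1 higher (3285 to 3775 and 3014 to 3405 of all 54613), and 13 to 18 list genes higher. At an adjusted p under 0.01, 5 of the 18 probe sets were lower and 0 higher, 2435 of all probe sets lower and 2208 higher, 1555 of all genes lower and 1285 higher, and 12 list genes higher. With _x_at and _s_at probe sets left out, 1661 of 17098 genes and 18 of 97 list genes were lower.

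Signs turned only for differences near 0 or genes with unlike probe sets. NFE2L2 1567015_at ranged from -0.07 to 0.12 over left-out arrays and was -0.01 after quantile normalization and -0.02 with array weights. GCLM 236140_at ranged from -0.07 to 0.04, and TXN from -0.12 to 0.07, with 0.22 for the probe set of largest SD. With _x_at and _s_at probe sets left out, TXN was 0.22, SLC7A11 0.01, BLVRA 0.00 and C5orf15 -0.10. The gene-level calls of HMOX1, GCLC and SRXN1 held in all 15 alternatives run and that of NQO1 in all 14 that gave it a value. These include the threshold of 0.1, which cannot lose a call. In the fit over probe sets the SRXN1 call was lost in 8 alternatives and held in 5. Signal over background cannot be read from centred values, and 3 arrays a group limit the precision.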
